A study of Mus musculus with 11 samples.

Results

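A set of 9 genes of the complement system was examined in RNA from whole distal tibiae of control mice and of mice whose bone marrow adipocytes (BMAds) were targeted with diphtheria toxin A. These were the rows of the merged count table whose symbol is C1ra, C1s1, C4b, C2, C3, Cfb, C6, C7 or Serping1, that is 9 genes out of 22600 in that table, and all 9 were found by symbol. The study sequenced 1 library per mouse from 4 control mice (genotype BMAd-WT) and 7 BMAd-DTA mice. All of them were of the mixed C57BL6/SJL background, fed ad libitum and labelled 24 weeks old. Per the study's methods, every mouse, controls included, carried Osterix-FLPo together with an FLPo-dependent Cre in the Adipoq locus (FAC), a combination that in itself lowers adiponectin. BMAd-DTA mice also carried ROSA-DTA, in which Cre removes a LoxP-flanked STOP cassette so that diphtheria toxin A is made and kills the cell. Cre is active chiefly in BMAds and in a small subset of marrow adipogenic lineage precursors, its activity grows with age, and whole bone RNA mixes marrow, bone and any muscle left on the bone.

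Complement is a cascade of blood proteins that tags microbes and dying cells for removal and can pierce their membranes. In the classical pathway the proteases C1r and C1s are activated on C1q and cut C4 and C2, whose fragments form an enzyme that cuts C3. In the alternative pathway factor B, cut by factor D, forms a second C3-cutting enzyme, and both routes end in the membrane attack complex that contains C6 and C7. C1 inhibitor, the product of Serping1, blocks C1r and C1s. The liver makes most circulating complement, but fibroblasts, marrow stromal cells, adipocytes and macrophages make components as well, and adipocytes are the main source of factor D, also called adipsin. Many of these genes respond to interferons.

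Total counts lay between 16969529 and 18637663 in controls and between 17128711 and 18432805 in BMAd-DTA mice. Levels are given as CPM, counts scaled to 1000000 per library after TMM normalisation, and differences as log2 fold changes of BMAd-DTA over control with their standard errors (SE). Osteoblast markers were present in every library, and the summed CPM of 6 such markers (Alpl, Bglap, Col1a1, Sp7, Ibsp and Dmp1) ran from 1674 to 7437 in controls and from 9288 to 20284 in BMAd-DTA mice. Control replicate 1 stood apart at the lower end, and the other 3 controls were at 6338 to 7437. Within this sum Col1a1 alone ran from 1245 to 6226 CPM in controls and from 7609 to 18037 CPM in BMAd-DTA mice. Bglap, Ibsp and Dmp1 overlapped between the groups, while Alpl, Col1a1 and Sp7 did not. The summed CPM of 10 adipocyte markers ran from 955 to 1411 in controls and from 463 to 1141 in BMAd-DTA mice. Adipocyte RNA was thus still measured in BMAd-DTA mice, and the median log2 fold change over the 10 was -1.10. Of the 10, 1, the adipokine gene Retn, passed with edgeR (log2 fold change -1.38, adjusted p = 0.0205). Skeletal muscle RNA varied between libraries of both groups, and the summed CPM of 8 muscle markers ran from 14.4 to 1235 in controls and from 15.6 to 972 in BMAd-DTA mice. Of 7 hepatocyte genes, Fgb had no count in any library and Alb had at most 12 counts, while Ahsg reached 25 counts. In bulk RNA, fewer cells of a type and less RNA per cell cannot be told apart.

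Among the 9 genes most of the RNA came from 3. C3, Serping1 and C4b together held 91.0% to 93.3% of the summed CPM of the 9 genes in each library. That sum averaged 1651 ± 53.1 CPM over the controls (SD, n = 4) and 1474 ± 142 CPM over the BMAd-DTA mice (SD, n = 7), and it was lowest, at 1173 CPM, in BMAd-DTA replicate 3. To compare levels between genes, CPM was divided by the kilobases of exon in the GENCODE M21 gene model. On this scale Serping1 was the highest of the 9, at a mean of 278 CPM per kilobase in controls, followed by C3 at 117, C4b at 46.8, C1ra at 21.6, C1s1 at 19.8, C6 at 2.30 and C2 at 0.725 CPM per kilobase. The levels of C2 and Cfb on this scale are lower limits, because they were divided by all exon bases although a part of these is shared with another gene model, and the places of C2 and Cfb in the order are therefore uncertain. Serping1 exceeded C3, and C3 exceeded C4b, in 11 of 11 libraries with no overlap of their ranges. C1ra and C1s1 could not be ordered, since C1ra was the higher in 5 of 11 libraries. C4b was above C1ra within each of the 11 libraries, although the ranges of these 2 genes overlapped between libraries. Cfb and C7 were close to nothing, with at most 13 and 6 counts in any library.

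**Figure D1:**
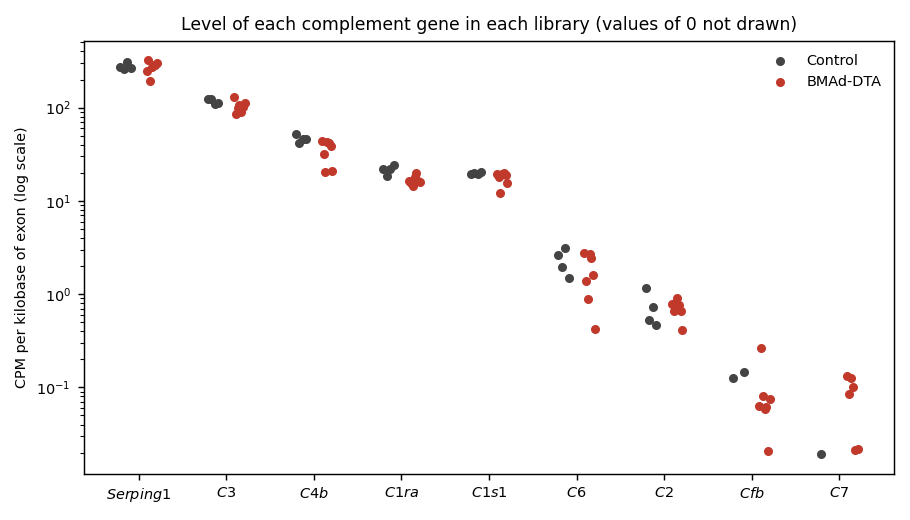
Level of the 9 complement genes in CPM per kilobase of exon (log axis) in each of 4 Control and 7 BMAd-DTA libraries, with values of 0 not drawn. Serping1, C3 and C4b stand above the proteases C1ra and C1s1, which lie at the same height, and Cfb and C7 lie at the bottom, C2 and Cfb being drawn at a lower limit.

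Of the initiating proteases, C1ra lay lower in most BMAd-DTA mice and C1s1 in fewer of them. C1ra (ENSMUSG00000055172.10), which encodes C1r, lies on chromosome 6 from 124512405 to 124523443 of GRCm38 on the plus strand. It was measured at 65.6, 54.8, 65.4 and 72.1 CPM in Control replicates 1 to 4. The 7 BMAd-DTA mice, in order of replicate, were at 49.1, 45.8, 43.3, 53.6, 58.9, 48.8 and 47.3 CPM. BMAd-DTA mice were lower, with 6 of 7 below every control, and the groups overlapped only through BMAd-DTA replicate 5 and Control replicate 2. The controls averaged 64.5 ± 7.14 CPM (SD, n = 4) and the BMAd-DTA mice 49.6 ± 5.21 CPM (SD, n = 7). The log2 fold change was -0.38 (SE 0.091, 95% confidence interval -0.58 to -0.18), a fitted level 23.1% lower. Under the quasi-likelihood test of edgeR, with p-values adjusted by Benjamini and Hochberg's method across the 16496 genes tested, the adjusted p was 0.0774 and thus did not pass 0.05. In DESeq2, the test that the study used, C1ra did pass (log2 fold change -0.38, adjusted p = 0.00781). Over all genes edgeR called 0.0788%, that is 0.00606% lower and 0.0727% higher, and DESeq2 called 5.42%, with 2.64% of genes lower. Without Control replicate 1 the adjusted p of C1ra with edgeR rose to 0.240, while its log2 fold change was -0.37 (SE 0.10). In that setting edgeR called 0 of 16766 genes.

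C1s1 (ENSMUSG00000038521.17), which encodes C1s, the partner of C1r in the C1 complex, is the neighbour of C1ra on chromosome 6, from 124530345 to 124542359 on the minus strand. The genes point towards each other with 6901 bases and no protein-coding gene between them. C1s1 was at 61.2, 62.5, 60.2 and 64.5 CPM in Control replicates 1 to 4. BMAd-DTA replicates 1 to 7 were at 60.6, 55.9, 38.5, 61.4, 62.8, 58.6 and 49.1 CPM. The controls lay close together, and 4 of 7 BMAd-DTA mice were below all of them, BMAd-DTA replicate 3 the furthest. The log2 fold change was -0.17 (SE 0.11, 95% confidence interval -0.41 to 0.076) and the adjusted p was 0.495 (edgeR). Without BMAd-DTA replicate 3 it was -0.096 on the log2 scale. The ratio of C1ra to C1s1 in CPM was 1.04 ± 0.11 in controls (SD, n = 4) and 0.909 ± 0.112 in BMAd-DTA mice (SD, n = 7), and its ranges overlapped.

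C4b and C2 supply the C3-cutting enzyme of the classical pathway. C4b (ENSMUSG00000073418.4), which encodes complement C4, lies on chromosome 17 from 34728380 to 34743882 on the minus strand. It was at 299.7, 239, 264 and 263 CPM in Control replicates 1 to 4. Its levels in BMAd-DTA replicates 1 to 7 were 249, 179.8, 117, 244, 236, 222 and 118 CPM. The BMAd-DTA mice were spread more widely than the controls, with 4 mice close to the control values and BMAd-DTA replicates 2, 3 and 7 well under them. In all, 5 of 7 were below every control. Its log2 fold change of -0.45 (SE 0.20, 95% confidence interval -0.89 to -0.014) was the lowest among the 7 tested members, with adjusted p = 0.288 (edgeR) and 0.166 (DESeq2). C4a, a near-identical copy of C4b, was at 0.883 to 2.40 CPM in the 11 libraries. Pairs that map to both copies are not in the counts. With the copies summed the log2 fold change of C4b was -0.45. At the low level of C4a this value could hardly differ, and the sum does not restore those pairs.

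C2 (ENSMUSG00000024371.14), which encodes the protease part of the same enzyme, was at 4.52, 2.06, 2.84 and 1.81 CPM in controls and between 1.60 and 3.50 CPM in BMAd-DTA mice, whose range lay almost entirely within that of the controls. The log2 fold change was -0.022 (SE 0.27, 95% confidence interval -0.61 to 0.56, adjusted p = 0.980, edgeR). C2 lies on chromosome 17 from 34862604 to 34898265, and Cfb (ENSMUSG00000090231.10), which encodes factor B of the alternative pathway, ends 85 bases from it, from 34856374 to 34862518. On the strand opposite to C2 35 to 67 pairs per library were counted, which are no part of its value. Both genes are on the minus strand, and a further gene model, Gm20547, runs across them. Exons of Gm20547 cover 42.8% of the exon bases of C2 and 79.5% of those of Cfb. STAR counts a pair for a gene only where it lies on that gene alone, and Gm20547 had 0 counts in every library. Gm20547 is among the genes that the authors counted. The counts of Cfb and C2 therefore come from the remaining exon bases, as far as its exons are those of GENCODE M21. The levels of both are then lower limits. Cfb had 0, 0, 6 and 8 counts in Control replicates 1 to 4 and 3, 13, 4, 3, 3, 1 and 4 counts in BMAd-DTA replicates 1 to 7. It did not pass the filter on low counts, and no difference was detectable at this depth.

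C3 (ENSMUSG00000024164.15), on which all complement pathways converge, lies on chromosome 17 from 57203970 to 57228136 on the minus strand. It was at 632, 633, 565 and 572 CPM in Control replicates 1 to 4. In BMAd-DTA replicates 1 to 7 it was at 669, 438, 514, 551, 466, 516 and 572 CPM. In BMAd-DTA mice 5 of 7 values lay below every control and 1, that of replicate 1, above all of them. The controls averaged 601 ± 37 CPM (SD, n = 4) and the BMAd-DTA mice 532 ± 75.8 CPM (SD, n = 7). The log2 fold change was -0.17 (SE 0.10, 95% confidence interval -0.39 to 0.044, adjusted p = 0.418, edgeR). The interval leaves room for a fall of up to 0.39 on the log2 scale and for almost no rise.

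Promoter sequence is shown for C3, the highest of the 9 genes after Serping1, and for C1s1, a protease whose lowest levels came in the same BMAd-DTA mice as those of C4b. The lowest levels of C1ra and C6, which are not printed, came in these mice too, though in another order among them. In the windows of C3 and C1s1 the RefSeq and GENCODE starts coincide. RefSeq promoters of build GRCm38.p6 were matched for 5 of the 9 genes, and the 250 bases before the start are printed 5′ to 3′ on the gene's own minus strand. They are chr17:57228137-57228386 for C3 and chr6:124542360-124542609 for C1s1. Capitals mark matches to TTGCNNAA, a core of C/EBP sites, on either strand (TTNNGCAA on the other). C/EBP proteins act in adipocytes, myeloid cells and the acute-phase response.
C3: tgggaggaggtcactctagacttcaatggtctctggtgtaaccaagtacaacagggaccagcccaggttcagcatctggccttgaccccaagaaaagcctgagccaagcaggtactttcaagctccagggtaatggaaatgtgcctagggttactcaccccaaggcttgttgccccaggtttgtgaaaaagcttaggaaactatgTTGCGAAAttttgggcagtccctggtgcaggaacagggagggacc
C1s1: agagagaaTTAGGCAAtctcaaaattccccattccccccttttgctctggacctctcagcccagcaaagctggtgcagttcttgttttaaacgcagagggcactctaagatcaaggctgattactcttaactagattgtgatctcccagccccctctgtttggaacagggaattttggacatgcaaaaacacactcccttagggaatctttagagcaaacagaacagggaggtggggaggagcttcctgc
Each printed window held 1 match, which lay 45 bases before the start in C3 and 242 bases before it in C1s1. Such a match was found in 9.56% of 32851 promoter windows of the same length. RefSeq gives C1s1 another start, and its window, chr6:124542322-124542571, held no match. The windows of C1ra and C6 held none, and neither did that of C7, so that C3 and C1s1 were the only genes matched that had one. The C1ra window, chr6:124512371-124512620, lay mostly inside the GENCODE model of the gene, and that of C6 ran into its model. Neither window is thus wholly upstream of the GENCODE start. TTCNNNGAA, a core of STAT sites that reads the same on both strands, was in 7.02% of all windows and, among the members matched, in that of C7 alone. These are matches of letters and were not tested for binding.

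C6 and C7 belong to the membrane attack complex. C6 (ENSMUSG00000022181.16) lies on chromosome 15 from 4727175 to 4814967 and was at 9.42, 7.01, 10.99 and 5.24 CPM in Control replicates 1 to 4. The 7 BMAd-DTA mice, in order of replicate, were at 9.90, 4.93, 3.12, 9.56, 8.67, 5.64 and 1.49 CPM. Both groups were widely spread, and 3 of 7 BMAd-DTA mice lay below every control. For C6 the log2 fold change was -0.40 (SE 0.41, 95% confidence interval -1.28 to 0.48, adjusted p = 0.685, edgeR), so that a difference in either direction remained within the error. It was -0.22 without Control replicate 3 and -0.23 without BMAd-DTA replicate 7. C7 (ENSMUSG00000079105.4), on the same chromosome from 4988762 to 5063740, had 0, 0, 0 and 1 counts in controls and 6, 4, 6, 5, 1, 1 and 0 counts in BMAd-DTA replicates 1 to 7. It did not pass the filter on low counts. Without that filter edgeR gave it an unadjusted p of 0.0156 and an adjusted p of 0.231, on 24 counts in all.

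Serping1 (ENSMUSG00000023224.12) encodes C1 inhibitor and lies on chromosome 2 from 84765387 to 84775444. It was at 629.98, 608, 720.4 and 623 CPM in Control replicates 1 to 4. BMAd-DTA replicates 1 to 7 were at 577, 745, 453, 628, 658, 671 and 694 CPM. The groups lay at the same height apart from BMAd-DTA replicate 3, which was the lowest of the 11. Its log2 fold change was -0.030 (SE 0.11, 95% confidence interval -0.28 to 0.22, adjusted p = 0.93, edgeR), and its sign turned with the library left out.

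**Figure D2:**
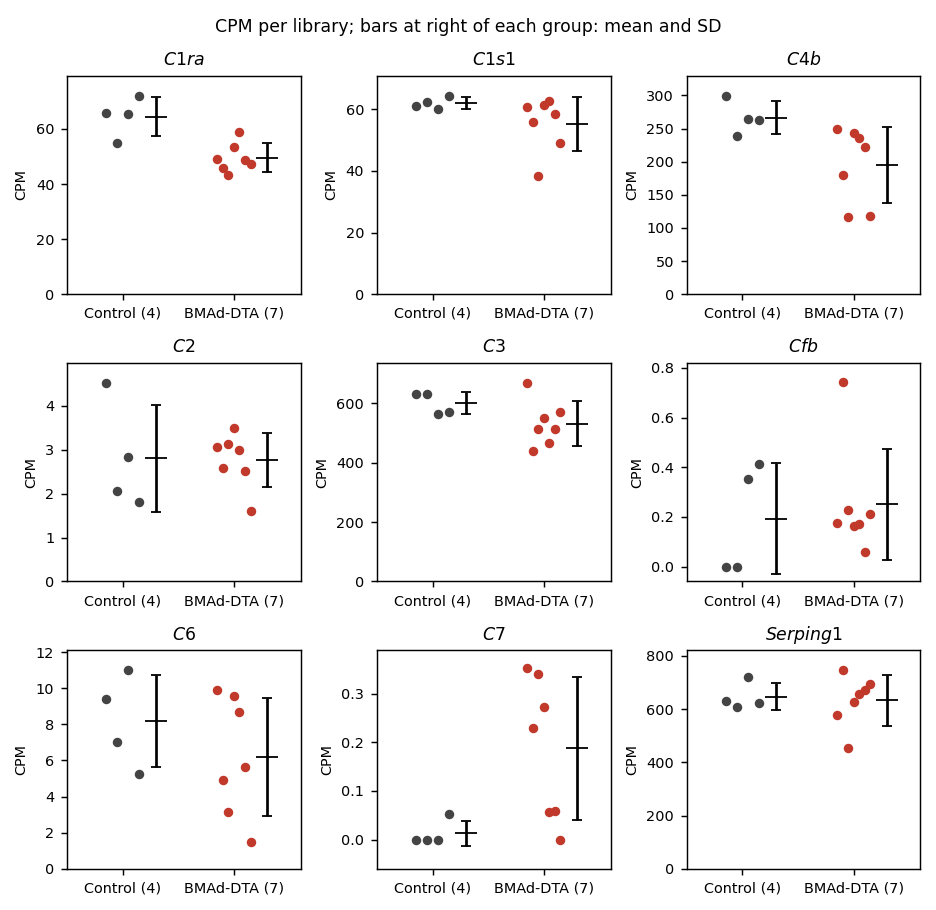
CPM of each of the 9 complement genes in every Control (4) and BMAd-DTA (7) library, 1 point per mouse, with mean and SD to the right of each group. C1ra is shifted down in BMAd-DTA mice, C4b and C6 are spread downwards by some of the mice, and Serping1 and C2 overlap throughout.

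Of the 9 genes, 7 passed the filter on low counts. In all 7 the log2 fold change was below 0, its median being -0.17, while over all genes tested 49.6% lay below 0 and the median was 0.0018. Of the 7, 0 reached an adjusted p under 0.05 with edgeR, 0 with limma-voom, and 1, C1ra, with DESeq2. Over all genes tested edgeR called 0.0788%, limma-voom 238 of 16496 and DESeq2 5.42%. Before adjustment 2 of the 7, C1ra and C4b, had a p under 0.05 with edgeR, both lower, as did 16.4% of all genes tested, 8.53% being lower. For none of the 7 did the groups separate completely, while 2.81% of all genes tested separated in CPM, 1.04% with BMAd-DTA mice the lower.

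The lowest levels of C4b, C6, C1s1 and C1ra came in the same mice. Of the 7 BMAd-DTA mice, replicates 2, 3 and 7 had the 3 lowest levels of each of these 4 genes. This held for 4 of the 7 tested members and for 4.81% of all genes tested. The order among the 3 differed between genes. C3, Serping1 and C2 did not follow this pattern, since replicate 5 was among the 3 lowest in C3, replicate 2 was the highest in Serping1 and replicate 6 was among the 3 lowest in C2. The 3 mice were singled out after their values were seen, and their levels were neither averaged nor tested.

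The same 3 mice were also lowest in 8 of 10 adipocyte markers and in 3 of 6 markers of marrow stroma. Among adipocyte markers Lep and Retn did not follow, and in Retn replicate 7 was the highest of the BMAd-DTA mice. Among stromal markers Kitl, Foxc1 and Grem1 did not follow, and replicate 2 was the highest of the BMAd-DTA mice in Foxc1 and Grem1. Plin1, which coats the lipid droplet of adipocytes, was at 11.4, 18.8 and 13.4 CPM in BMAd-DTA replicates 2, 3 and 7, between 44.6 and 73.3 CPM in the other BMAd-DTA mice, and between 73.8 and 123.5 CPM in controls. Lepr, the leptin receptor of marrow stromal cells, was at 142, 136 and 178.7 CPM in these mice and between 201 and 341 CPM in the other 8 libraries. Cxcl12, the main chemokine of those cells, was at 2771, 2427 and 2731 CPM in them. Control replicate 1, at 2399 CPM, was lower still in Cxcl12 without being low in C4b. In Adipoq, Control replicate 4 was at 28.5 CPM, below BMAd-DTA replicates 1, 4, 5 and 6, at 67.3 to 115 CPM. Control replicate 4 was at 263 CPM in C4b and, at 72.1 CPM, was the highest of the 11 libraries in C1ra. None of 8 skeletal muscle, 6 osteoblast or 8 fibroblast markers had BMAd-DTA replicates 2, 3 and 7 as the 3 lowest, and of 10 interferon-response genes 2 did. The part of adipocyte or stromal RNA in the levels of C4b, C6, C1s1 and C1ra was not tested.

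**Figure D3:**
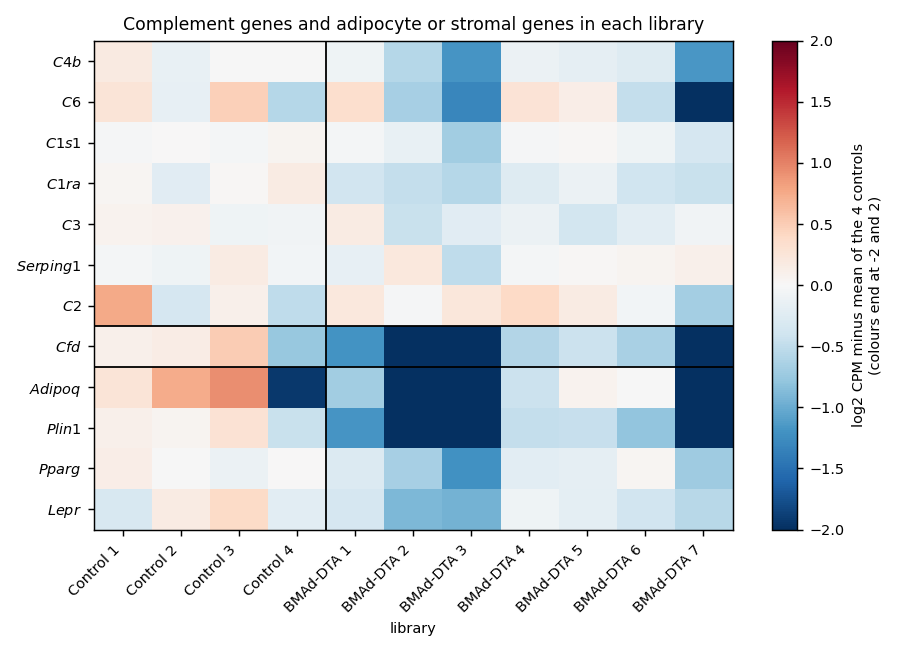
Difference of log2 CPM from the mean of the 4 controls (colour, ending at -2 and 2) for the 7 tested members, for Cfd, and for 4 adipocyte or stromal genes, in each of the 11 libraries. Among BMAd-DTA mice, replicates 2, 3 and 7 are the lowest in C4b, C6, C1s1, C1ra, Cfd, Adipoq, Plin1 and Lepr. The adipocyte gene Retn and the stromal genes Foxc1 and Grem1, which did not follow this pattern, are not drawn.

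Interferon-response genes had negative log2 fold changes too. The 10 values were all below 0 and had a median of -0.29, but 0 of them reached an adjusted p under 0.05 with edgeR or DESeq2. Their summed CPM ran from 353 to 592 in controls and from 249 to 442 in BMAd-DTA mice. The upper end in controls was Control replicate 1 alone, and the other 3 controls, at 353 to 423, lay within the range of BMAd-DTA mice. Of 9 acute-phase and NF-kappaB genes 3 had a negative and 6 a positive log2 fold change. The part of the interferon-response genes in the level of C1ra was not tested.

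The other complement genes did not move in 1 direction. A list of 52 genes, the 9 included, held the pathways, regulators and receptors, and 47 of them were in the merged table and 37 passed the filter. Of the 37, 22 had a negative and 15 a positive log2 fold change. With edgeR 0 reached an adjusted p under 0.05 in either direction (3 had an unadjusted p under 0.05, all lower), and with DESeq2 1 did, again C1ra. Without the members the list had 15 negative and 15 positive values and a median of 0.017.

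The lowest fold change of the list was that of Cfd, which encodes factor D, the protease that cuts factor B. It was at 337, 347, 443 and 186 CPM in Control replicates 1 to 4. Its levels in BMAd-DTA replicates 1 to 7 were 137, 33.0, 65.9, 208, 233, 200.3 and 33.3 CPM. The groups overlapped through Control replicate 4. Its log2 fold change of -1.34 (SE 0.49) came with adjusted p = 0.195 (edgeR) and 0.176 (DESeq2).

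In the classical pathway 7 of 9 tested genes had a negative log2 fold change, from C4b at -0.45 to C1s2 at 1.87, and the 3 chains of C1q, which macrophages make, had -0.12 for C1qa, -0.22 for C1qb and -0.18 for C1qc (adjusted p of 0.457 or more, edgeR). The C1q chains were named after their values were seen. In the lectin pathway, which recognises sugars, 2 of 5 tested genes were negative, from -0.37 for Colec11 to 0.44 for Masp2. In the alternative pathway and C3 itself 2 of 3 were negative, and Cfp, which encodes the stabiliser properdin, had 0.088. In the terminal pathway C8g, a part of C8, had 0.19 beside C6. Among soluble regulators 2 of 3 were negative, from Vtn, which encodes vitronectin, at -0.58 to Clu, which encodes clusterin, at 0.052. Among membrane regulators 4 of 7 were negative, from Cd59b at -0.35 to Susd4 at 0.19. Among receptors 4 of 8 were negative, from C5ar2 at -0.12 to Cr2, a B-cell complement receptor, at 0.43. Among genes that passed the filter, none of the lectin and terminal pathways, the membrane regulators or the receptors had an unadjusted p under 0.05 with edgeR.

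**Figure D4:**
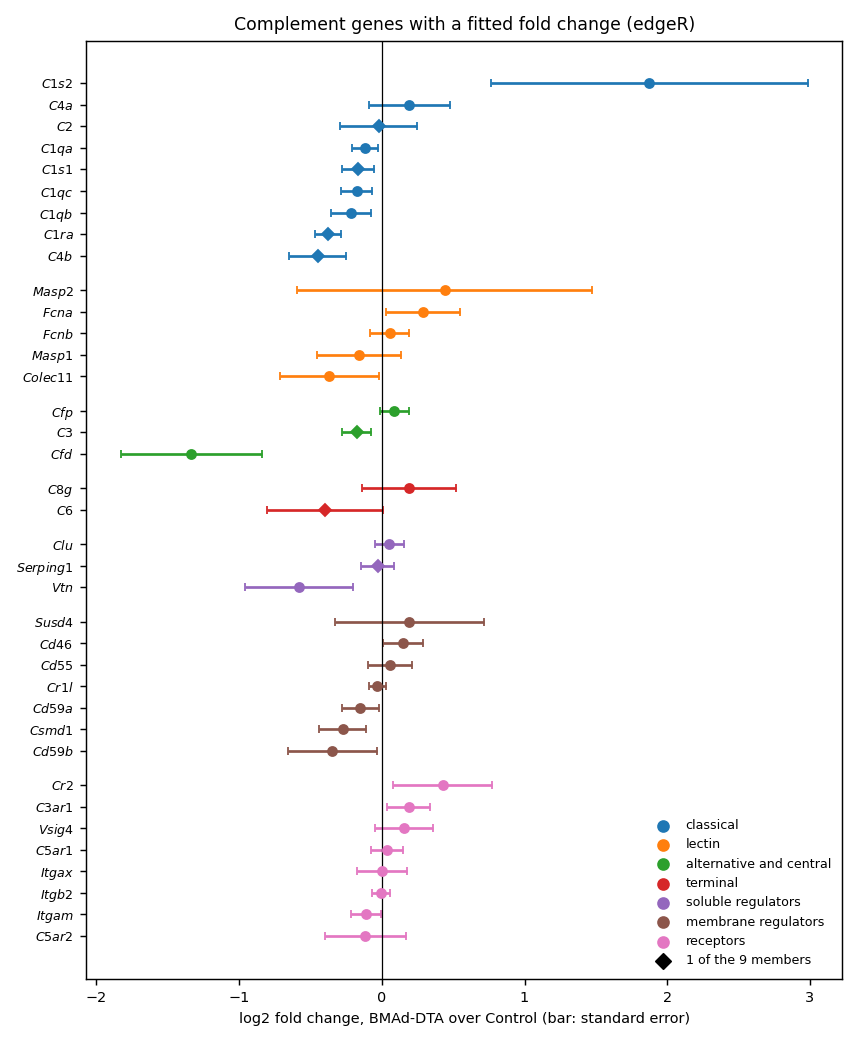
Log2 fold change of BMAd-DTA over Control with its standard error for the 37 tested complement genes, grouped by role, with members drawn as diamonds. The members lie between -0.45 and -0.022, while Cfd lies furthest to the left and C1s2, a gene of few counts, furthest to the right.

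The genes whose pattern was most like that of the members were sought by the Pearson correlation, over the 11 libraries, between a gene's log2 CPM and the mean of the 9 members' standardised log2 CPM. Among tested genes outside the members, the 5 highest were Zfp366 (r = 0.974), Efemp1 (r = 0.907), Gjc3 (r = 0.899), Madcam1 (r = 0.896) and Cbln1 (r = 0.878). They were the highest of all genes compared, the libraries share genotype and composition, and Cfb and C7 weigh as much in this mean as the abundant members, so these values are a description. With the mean of the 7 tested members instead, the order among these 5 genes changed. Their r was then 0.957 for Efemp1, an extracellular matrix gene of the fibulin family, 0.936 for Cbln1, 0.903 for Zfp366, 0.890 for Madcam1 and 0.803 for Gjc3. The genes most like the mean of the 7 were not sought. Cbln1 was at 1.93 to 55.1 CPM and Efemp1 at 9.59 to 33.1 CPM over the libraries, and their log2 fold changes of -1.10 and -0.61 had adjusted p values of 0.328 and 0.247 (edgeR).

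The members differed in how far their fold changes depended on the libraries and the processing. Over 21 alternatives, 11 of which left out 1 library each, the log2 fold change of C1ra stayed between -0.45 and -0.30 and that of C4b between -0.52 and -0.36. C6 ran from -0.56 to -0.22 and C1s1 from -0.20 to -0.096, and C2 and Serping1 turned sign in 3 and 2 of them. With the level of muscle markers as a covariate, the log2 fold change was -0.40 for C1ra and -0.43 for C4b.

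**Figure D5:**
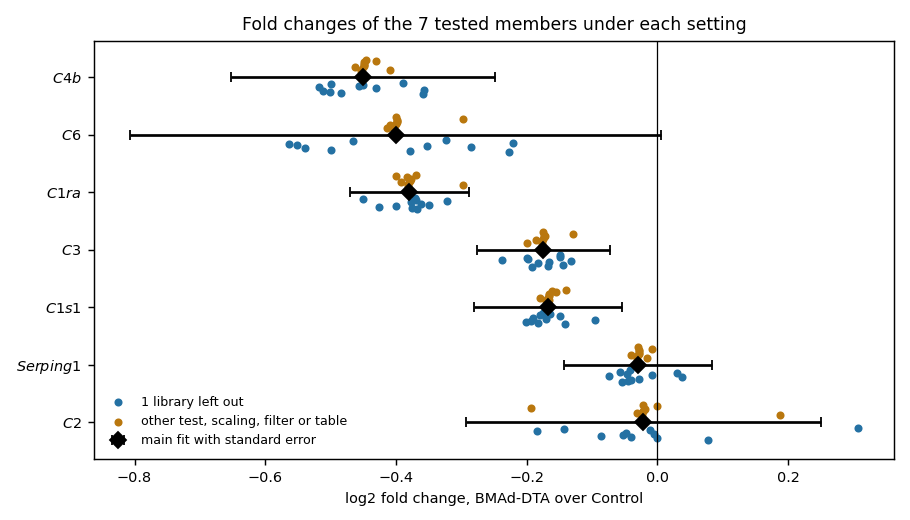
Log2 fold change of the 7 tested members in the main fit (diamond with standard error), with 1 library left out (blue) and with another test, scaling, filter, covariate or table (orange). C4b, C6, C1ra, C3 and C1s1 stay below 0 in every setting drawn, and Serping1 and C2 lie on both sides of 0.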

How the data were processed

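Whole distal tibiae were profiled by paired-end, strand-specific mRNA sequencing. The authors checked reads with FastQC 0.11.9, aligned them to mm10 with STAR and deposited raw counts (read pairs per gene), both singly for the libraries and merged. The annotation release is not given in the sources used here. Of the merged identifiers, 98.09% matched GENCODE M21 (GRCm38) with version, and the merged table equals the read-strand counts of the libraries.

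The test was edgeR's (4.0.16, under R 4.3.3; low counts removed by filterByExpr, TMM scaling, glmQLFit and glmQLFTest, two-sided, genotype as the only term, Benjamini-Hochberg over 16496 genes, adjusted p under 0.05). The SE is the log2 fold change over the square root of F. The study's DESeq2 was run (1.42.0, default settings) as an alternative, beside limma-voom (limma 3.58.1) with quality weights, other scalings, filters and tables, a skeletal muscle covariate (mean log2 CPM of 8 markers, prior count 2) and each library left out. The sum of near-identical copies was added after the data were seen. All 27 within-group pairs of libraries differed beyond sampling noise (chi-square per gene 17.9 or more). The fits were tested on simulated data.

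Members and lists were chosen with earlier results of these data known. Named are the members, their near copies, genes of the complement list past the threshold or lowest or highest in their role, Cfd, and the 5 most alike. A result that belonged to the complement list is not reported here, and the counts of the list leave it out. Labels give 1 library per mouse and no batch. Columns of the merged table were matched to libraries through the number in the sample titles.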

Additional observations from a re-analysis of the deposited data

Results flagged for a closer look

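In groups of 4 and 7 libraries, the highest or lowest value was compared with its nearest neighbour relative to the range of the group (Dixon's criterion at 95%) for the 9 members and for Cfd, C4a, C1rb and C1s2. Of 26 groups 2 were flagged, where chance gives about 1 in 20, a rate that does not hold for counts near 0. In Cfb, BMAd-DTA replicate 2 was at 0.745 CPM, the highest of its group, on 13 counts. In C7, Control replicate 4 was at 0.0519 CPM on 1 count, and the other controls had 0. A single count among values of 0 is always flagged, since the gap is then the whole range.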

How the results depend on the processing

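In 20 of 21 alternatives the number of members with an adjusted p under 0.05 stayed at 0, as did that of the complement list. This included each library left out (0 to 0 for both). Few genes passed at all in these settings. With 1 library left out, edgeR called from 0 of 16766 genes (without Control replicate 1) to 292 of 16757 (without Control replicate 3). A count of 0 among the members therefore says little about how stable their levels are. DESeq2 called 1 member and 1 gene of the complement list, C1ra in both cases. In the edgeR and limma-voom alternatives the adjusted p of C1ra lay between 0.0589, without BMAd-DTA replicate 5, and 0.240, without Control replicate 1. Fold changes turned sign in 5 cases, and the cause was not tested. C2 was at 0.19 with limma-voom, 0.31 without Control replicate 1 and 0.077 without BMAd-DTA replicate 7, and Serping1 at 0.030 without Control replicate 3 and 0.037 without BMAd-DTA replicate 3. With 1 library left out, C2 ran from -0.18 to 0.31 and Serping1 from -0.074 to 0.037. The other fold changes kept their direction, with that of C6 from -0.56 to -0.22, that of C3 from -0.24 to -0.13 and that of C1s1 from -0.20 to -0.096. Depth limits Cfb, C7 and C2, which had at most 13, 6 and 82 counts per library. No paired analysis was possible because replicate numbers only follow the order of the samples.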

Other observations

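C1rb and C1s2, copies of C1ra and C1s1, were highest in the same 2 libraries. C1rb had 20 and 27 counts in BMAd-DTA replicates 4 and 5 and at most 3 counts in the other 9 libraries. C1s2 had 85 and 64 counts in these libraries and at most 13 counts in the others. With 1.87 the log2 fold change of C1s2 was the highest of the complement list, but its SE was 1.11 and its adjusted p 0.431 (edgeR). C1ra and C1s1 were at 53.6 and 61.4 CPM in BMAd-DTA replicate 4 and at 58.9 and 62.8 CPM in replicate 5, their highest levels among BMAd-DTA mice. The 2 libraries were singled out after their values were seen.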
